A study of Danio rerio with 18 samples.

Results

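The cytosolic ribosomal protein genes of zebrafish were followed in sorted retinal cells after optic nerve transection. They were taken by name: every gene whose name began with rpl or rps followed by a digit, or with rplp, or was rpsa, leaving out the rps6k kinases. This gave 84 of 25281 genes in the deposited tables, 35 named for the small (40S) subunit and 49 for the large (60S) subunit, on 25 chromosomes. All 84 passed the filter on low counts, which 17527 genes passed in all. Of the 84, 3 were kept in every count but are set apart here. They are rps19bp1, named for a binding partner of the protein RPS19, and rpl9_1 and rpl37_1, whose identifiers the gene name table pairs with RFC1 and COA1. The other 81 comprised 34 small-subunit and 47 large-subunit genes.

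All fish carried isl2b:GFP, a reporter in which the isl2b promoter labels retinal ganglion cells, the neurons that send their axons through the optic nerve. Injured libraries (ONT+) were made from eyes after transection of their nerve, and control libraries (ONT-) from the uninjured contralateral eyes. Both were collected 6, 12 or 24 hours after injury (written hpi), with 3 libraries in each of 6 groups. Each library was made from 1000 sorted cells of adult fish of 3 to 5 months, and how many fish a library pooled is not given in the sources used here. Nothing in the labels says that libraries came from separate fish, so p-values measure the spread between these libraries, which may be technical.

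Each cytosolic ribosome is built from a small subunit, which reads the messenger RNA, and a large subunit, which joins amino acids, and each subunit holds ribosomal RNA and many small proteins. The proteins are needed in equal amounts apart from those of the stalk, and in vertebrates most of their messenger RNAs begin with a pyrimidine tract through which mTOR signalling controls their translation as a group. In neurons, protein synthesis is needed for axon regrowth, and adult zebrafish, unlike mammals, regrow the optic nerve.

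Total counts ranged from 15490375 to 28329194 per library. All 19 ganglion cell markers found in the tables were detected, but together they held only 0.0842% to 0.380% of counts, while 47 rod and cone genes held 14.3% to 27.8% and rho, the rod opsin, alone 14.4% of all counts. The sorted samples therefore held much photoreceptor RNA, and the values below are of mixed samples; in such samples fewer cells of a type and less RNA per cell cannot be told apart. At 24 hpi the groups did not overlap in either list: ganglion cell markers held 0.113% to 0.187% in injured and 0.224% to 0.291% in control libraries, and rod and cone genes 26.5% to 27.8% in injured and 24.1% to 24.2% in control libraries. Markers of amacrine cells (0.0150% to 0.0196% in injured, 0.0317% to 0.0478% in control libraries) and of horizontal cells were also lower in injured libraries without overlap. Those of bipolar cells overlapped, at 0.630% to 0.967% in injured and 0.912% to 0.989% in control libraries. Library names carry S numbers in 2 runs, of 4 and 14 libraries; the labels do not say what a run is. The first run held injured 24 hpi replicate 3, control 6 hpi replicates 2 and 3 and control 24 hpi replicate 1.

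The levels of the members were compared per exon length, as RPKM (read counts scaled by exon length and by library total, as the authors deposited them). The highest member, rpl32, averaged 770 ± 80.6 RPKM in injured and 777 ± 64.4 RPKM in control libraries, and rpl19, at the rim of the tunnel by which new proteins leave the ribosome, averaged 745 ± 48.9 in injured and 726 ± 48.1 in control libraries (SD, n = 9 each). They were followed by rps27.1 at 486 ± 41.3 RPKM, rpl3 at 445 ± 28.7 and rpl18 at 400.0 ± 38.5 in the control libraries. Of the 81 genes, 65 lay between 50 and 500 RPKM and the quartiles were 75 and 218 RPKM. The control median was 151 RPKM over small-subunit genes and 125 RPKM over large-subunit genes, and all 84 exceeded the median of 2.46 RPKM over all genes tested. In the order of the levels, 80 of 83 neighbouring pairs overlapped in range over the 9 control libraries. Ranges do not compare genes within a library, so this does not say how well the order is resolved. For instance, rpl32 lay above rpl19 in each of the 9 control libraries.

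**Figure D1:**
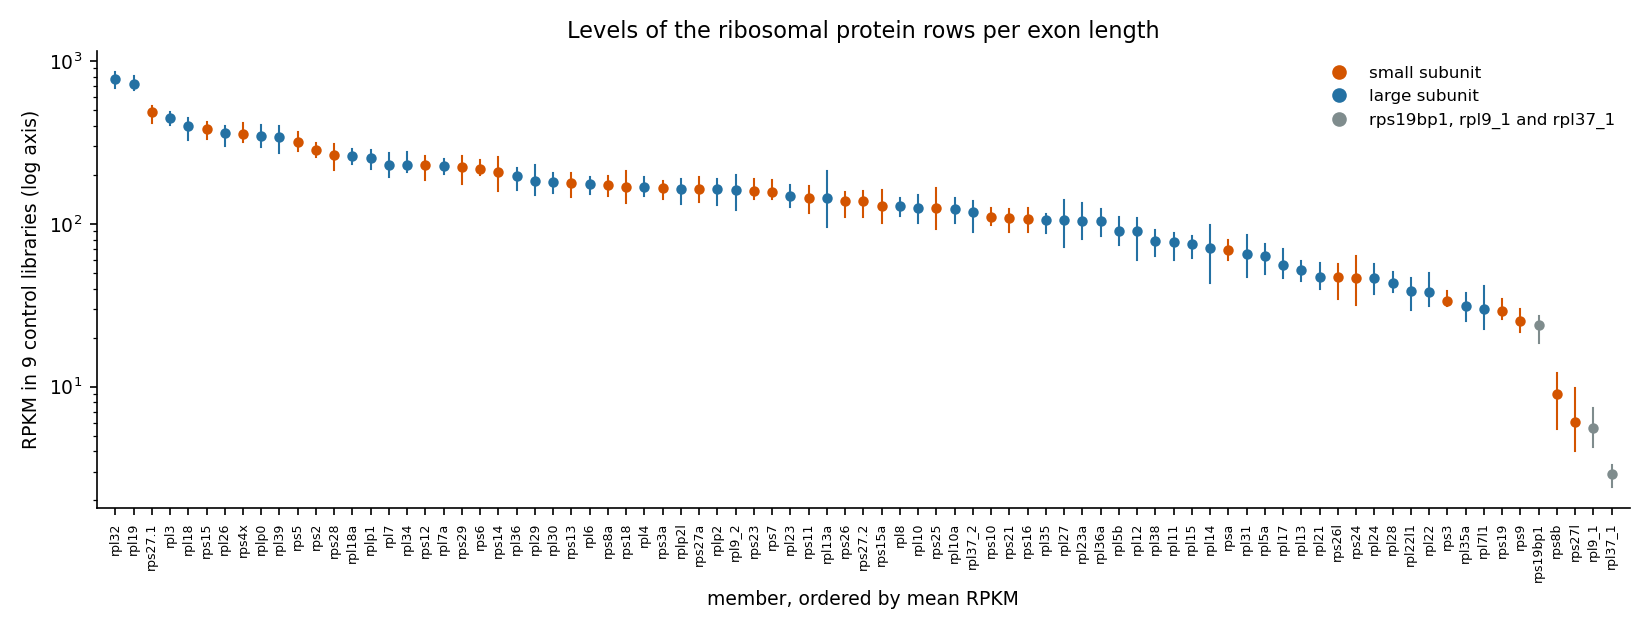
Mean RPKM (points) and lowest to highest RPKM (lines) of 83 members over the 9 control libraries, on a log axis, ordered by the mean. Most members form one slope from 777 RPKM for rpl32 down to 25.4 RPKM for rps9, and 4 rows lie below 10 RPKM.

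Of the 5 lowest members, 4 lay apart from that slope and rps19bp1 ended it. In control libraries rps19bp1 averaged 23.9 ± 3.12 RPKM, rps8b 8.96 ± 2.49, rps27l 6.10 ± 2.01, rpl9_1 5.58 ± 0.922 and rpl37_1 2.93 ± 0.320 (SD, n = 9). Thus 3 of the 5 are the rows set apart at the start, and the others, rps8b and rps27l, are each a second copy of a subunit protein whose partner was abundant. The row rpl9_1 overlaps rpl9_2 on the same strand. In all, 22 members overlap another gene in coordinates, 10 of them on the same strand. The library kits, named in the labels as SMART-Seq HT and Nextera XT, do not mark strand, so the counts of all 22 may hold reads of the neighbour. Those named here are rpl24, rpl9_1, rpl9_2, rps8a, rpl37_1, rpl7a, rpsa, rpl22, rps24, rpl26, rpl18, rps27.2, rps9 and rpl13a.

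Zebrafish carry duplicates or close relatives of several ribosomal protein genes. Some of these pairs were very unequal in level, and others were near parity. Reads from near-identical copies may have been split between them, so the ratios below are uncertain to that extent. The ratio of rps8b to rps8a, per length, averaged 0.0491 ± 0.0205 in injured and 0.0524 ± 0.0153 in control libraries (SD, n = 9 each). The ratio of rps27l to rps27.1 averaged 0.0156 ± 0.00648 in injured and 0.0124 ± 0.00334 in control libraries, so almost all of this family's RNA came from rps27.1 and its duplicate rps27.2, whose ratio to rps27.1 was 0.265 ± 0.0197 in injured and 0.285 ± 0.0326 in control libraries. By contrast, both genes for Rpl5, a protein that binds the 5S ribosomal RNA with Rpl11, were used: rpl5b over rpl5a averaged 1.42 ± 0.141 in injured and 1.45 ± 0.188 in control libraries. The stalk genes rplp2l and rplp2 were near parity, at 1.12 ± 0.141 in injured and 1.01 ± 0.131 in control libraries. For rps26l over rps26, at the messenger RNA exit channel, the ratio was 0.376 ± 0.0508 in injured and 0.340 ± 0.0301 in control libraries. The gene rpl7l1, whose human relative acts in ribosome assembly, stood at 0.121 ± 0.0248 of rpl7 in injured and 0.130 ± 0.0260 in control libraries.

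The pair rpl22l1 and rpl22 were also close to parity. At 6 hpi the ratio of rpl22l1 to rpl22 was 1.36, 1.11 and 1.25 in injured libraries, against 0.944, 0.907 and 1.16 in control libraries. At 12 hpi it ran from 1.09 to 1.21 in injured libraries and from 0.937 to 1.11 in control libraries. At 24 hpi it was 1.11, 1.04 and 1.16 in injured libraries, against 1.04, 1.13 and 0.977 in control libraries. The means were 1.17 ± 0.0958 in injured and 1.02 ± 0.0932 in control libraries (SD, n = 9 each), but the groups overlapped at every time point, and this difference was not tested.

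The members moved together from library to library. Between libraries, members were compared as log2 CPM (CPM being counts scaled to library size, here with TMM factors, which centre the bulk of genes). The SD over the 18 libraries had a median of 0.19 over the 84 members and 0.53 over all genes tested; over the 987 other genes at or above the members' median level it was 0.23. After the members' median was subtracted in each library, the median SD was 0.10 for the members, and it was lower than before for 80 of 84. For those 987 other genes, subtracting their own library median left 0.21. The subunits did not part: the median deviation of small-subunit genes and of large-subunit genes differed by at most 0.05 (log2) in any library. In injured 24 hpi replicate 3, the highest library, the deviations were 0.36 for the small and 0.35 for the large subunit.

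The members most closely tied to the family were rpl18, rplp1 and rpl23, with an SD about the library median of 0.06 each. Loosest were rps27l at 0.55, rps8b at 0.48 and rpl7l1 at 0.30. Components of the ribosome outside the name rule ran with it: rack1, a scaffold on the small subunit, had an SD of 0.04 about the members' median, closer than any member, and faua had 0.09, while faub had 0.30. The row RPL37A, written in capitals in the tables, had 0.08.

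**Figure D2:**
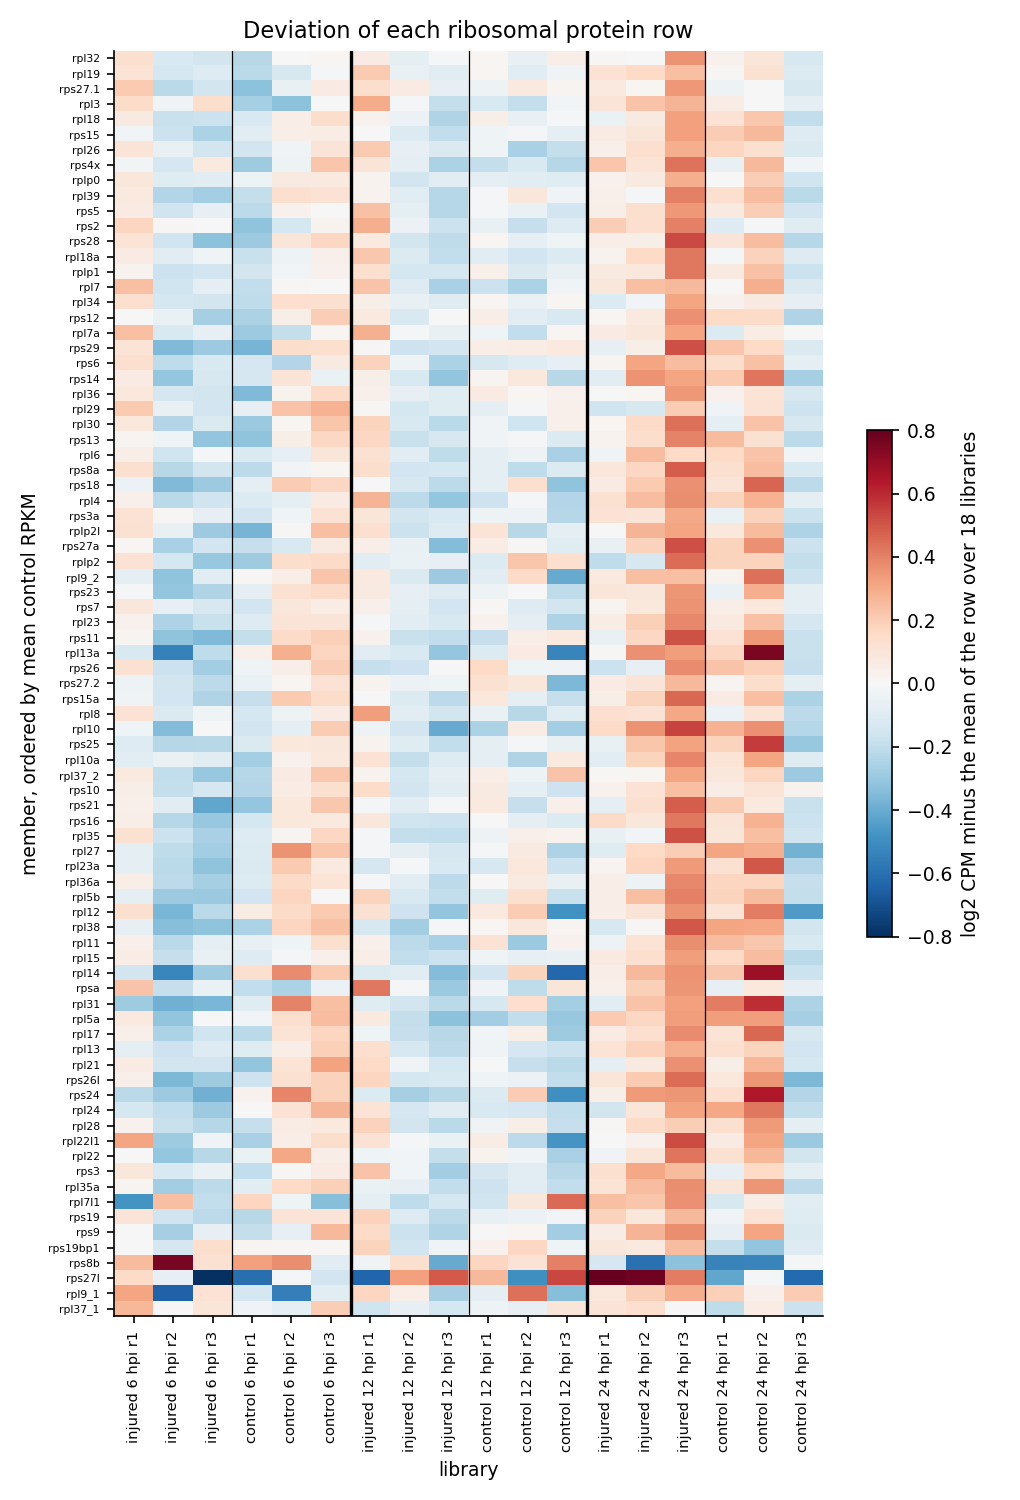
Log2 CPM of 83 members, each minus its own mean over the 18 libraries, members ordered by mean control RPKM and libraries by group, injured left of control at each time. Whole columns share a colour, such as injured 24 hpi replicate 3, while rps8b and rps27l near the foot have patterns of their own; colours saturate at the ends of the scale.

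A second, smaller pattern ran within the family, chosen after its values were seen and given with no test. Among the 75 members with a mean log2 CPM of at least 6, the first axis of the variation left after subtracting each library's median held 41.6% of it, and the second 19%. At one end stood rpl14, rps24, rpl13a and rpl31, at the other rpl3, rpl7a, rpsa and rps2. The mean log2 CPM of the first 4 minus that of the other 4 was -2.52, -2.48 and -2.44 in injured libraries at 6 hpi. It was -1.83, -1.54 and -1.92 in control libraries at 6 hpi. At 12 hpi it was -2.55, -2.26 and -2.22 in injured libraries, against -2.19, -1.79 and -2.61 in control libraries. At 24 hpi it was -2.22, -1.99 and -2.12 in injured libraries, against -1.84, -1.49 and -2.28 in control libraries. The groups were apart at 6 hpi, where the injured libraries were lower, and overlapped at 12 and 24 hpi. Among the 6 hpi controls, -1.54 and -1.92 are of the first run of S numbers and -1.83 is of the second.

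The summed counts of the family were then set against each library's total. They took 1.47%, 1.54% and 1.31% of counts in injured libraries at 6 hpi, against 1.54%, 1.90% and 1.69% in control libraries. All injured libraries lay below the lowest control there, the nearest by less than the last digit printed, and the means were 1.44% ± 0.119 in injured and 1.71% ± 0.181 in control libraries (SD, n = 3 each). At 12 hpi the shares were 1.57%, 1.53% and 1.56% in injured libraries, against 1.68%, 1.54% and 1.47% in control libraries. At 24 hpi they were 1.46%, 1.53% and 1.84% in injured libraries, against 1.64%, 1.78% and 1.38% in control libraries. The groups overlapped at both later times. The 95% Wilson interval of each share was at most 0.00632 points to either side, which covers counting error only. The intervals of the nearest injured and control libraries at 6 hpi overlapped.

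The share also went with the numbering of the libraries. The 4 libraries of the first run of S numbers held 1.64% to 1.90%, with a median of 1.76%, and the 14 of the second run 1.31% to 1.78%, with a median of 1.54%. At 6 hpi the injured mean was 0.271 points lower than the control mean over all libraries, and 0.104 points lower with the second run alone, which leaves 1 control library. The part of the run in this difference was not tested.

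**Figure D3:**
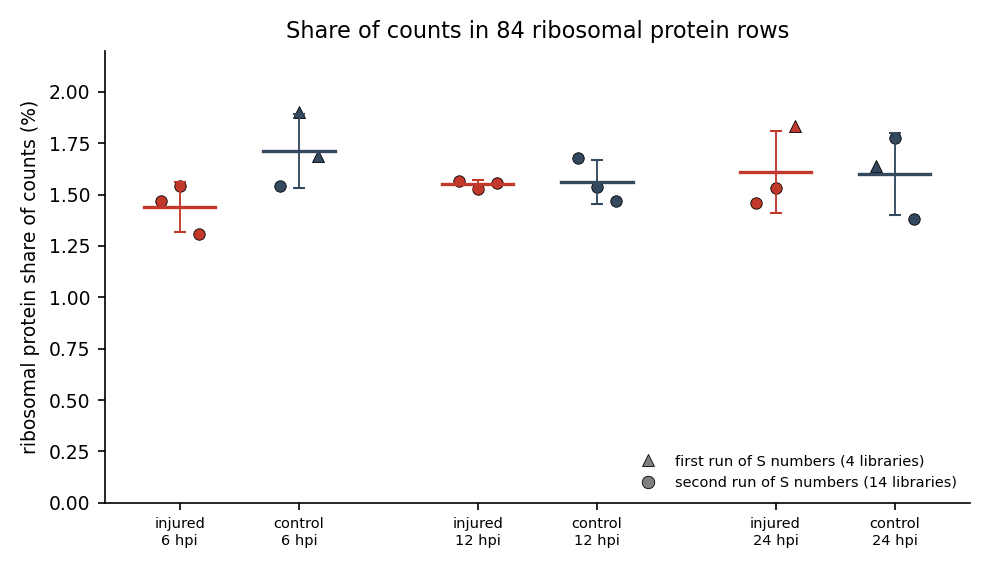
Percent of each library's counts in the 84 members, with group means (bars) and SD (whiskers, n = 3), injured left of control; triangles are the 4 libraries of the first run of S numbers. Both higher control libraries at 6 hpi and the highest injured library at 24 hpi are triangles.

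Whether transection altered single ribosomal protein genes was tested with edgeR's quasi-likelihood test over all genes, with Benjamini-Hochberg adjustment. No member was called at an adjusted p under 0.05 at 6, 12 or 24 hpi, and neither was any other gene (0% of 17527 each time). DESeq2, run as an alternative, also called no member for injury, while it called 68, 7 and 189 genes in all at 6, 12 and 24 hpi. The median standard error of a member's log2 fold change was 0.15 at each time. The largest differences were not called, and belonged to members with larger standard errors of their own.

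At 6 hpi members were on the whole slightly lower in injured eyes: 64 of 84 had a negative log2 fold change and 20 a positive one, with a median of -0.10 beside -0.02 over all genes. An unadjusted p under 0.05 was reached by 6 members (7.14% of 84, against 9.28% of all genes), 5 of them lower. Groups did not overlap for 6 members, all lower in injured libraries (7.13% of all genes lay below without overlap and 6.13% above). Those shares are near or below the background. With a term for the S number run the median was 0.03 and with the second run alone 0.07, which turns its sign. Without control 6 hpi replicate 1 it was -0.19 and without control 6 hpi replicate 3 it was -0.03. At this time rod and cone genes held 17.6% to 26.1% of counts in injured and 14.3% to 22.9% in control libraries, and ganglion cell markers 0.0842% to 0.276% in injured and 0.234% to 0.380% in control libraries; their part in these values was not tested.

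The lowest 6 hpi values belonged to genes of the first end of the axis above. That axis was taken from all 18 libraries, those at 6 hpi included, so this is not a separate result. The gene rpl31, at the rim of the exit tunnel (chromosome 9, 56225410 to 56232296 in GRCz11, minus strand), had 73.7, 68.7 and 69.9 CPM in injured libraries, against 84.1, 118 and 106 CPM in control libraries. Every injured library lay below every control library. The controls at 118 and 106 CPM, replicates 2 and 3, are of the first run of S numbers. The log2 fold change of rpl31 was -0.54 ± 0.19 (SE, edgeR adjusted p = 0.457). The large-subunit gene rpl14 had 77.5, 59.7 and 70.5 CPM in injured libraries, against 94.1, 111 and 99.3 CPM in control libraries, again without overlap (-0.55 ± 0.21, edgeR adjusted p = 0.477). Also apart were rps24, at 85.6 ± 5.00 CPM in injured and 122 ± 15.3 CPM in control libraries, and rpl13a, often used as a reference gene, at 154 ± 22.7 CPM in injured and 209 ± 17.3 CPM in control libraries (SD, n = 3 each). In the other direction stood rpl3, which lies near the site where peptide bonds form. It had 966, 851 and 960 CPM in injured libraries, against 723, 692 and 870 CPM in control libraries. The groups overlapped, and the log2 fold change was 0.28 ± 0.13 (edgeR adjusted p = 0.531). Over the alternatives tried, 6 hpi values ran from -0.74 to -0.25 for rpl31, -0.77 to -0.44 for rpl14 and -0.71 to -0.33 for rps24. For rpl3 they ran from 0.09 to 0.39. The smallest of these differences for rpl31, rpl14 and rps24 came with the second run alone, which leaves 1 control library.

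At 12 hpi the family was level. The median log2 fold change was 0.00, both over the 84 members and over all genes, with 43 members positive and 41 not. No member had an unadjusted p under 0.05, against 3.64% of all genes. The range ran from -0.32 for rps8b to 0.21 for rpl22l1, and 82 members lay within 0.25 of 0. Groups were apart for 3 members, rpl37_1, rpl38 and rps29, each lower in injured libraries (4.26% of all genes lay below and 4.14% above). The smallest p-values belonged to rpl26, rpl8 and rpl3 among the positive members, at 0.18, 0.17 and 0.16, and to rpl7l1, rps8b and rpl38 among the negative ones, at -0.29, -0.32 and -0.18.

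At 24 hpi the family lay slightly higher in injured eyes, with 73 of 84 members positive and a median log2 fold change of 0.12 beside 0.02 over all genes. An unadjusted p under 0.05 was reached by 3 members, all higher (3.57% of 84, against 8.48% of all genes). Groups were apart for 8 members, all higher in injured libraries (7.86% of all genes lay above without overlap and 8.40% below). Without injured 24 hpi replicate 3 the median was 0.02, without control 24 hpi replicate 2 it was 0.21, and scaled by library totals alone it was -0.00. Its size thus depends on single libraries and on the scaling. The marker lists also differed at this time, as given above, and their part in it was not tested.

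The one member with a larger difference at 24 hpi was rps27l (chromosome 25, 34641536 to 34650374 in GRCz11, plus strand), whose human relative is a target of p53. It had 13.8, 11.1 and 8.56 CPM in injured libraries, against 4.80, 6.36 and 4.14 CPM in control libraries. All injured libraries lay above all control libraries. The log2 fold change was 1.13 ± 0.39 (edgeR adjusted p = 0.416), and it was 0.00 at 6 hpi and -0.02 at 12 hpi. It was not called, and the test of a difference in its injury effect among the 3 times gave an edgeR adjusted p of 1.00 (unadjusted p = 0.0841). Its 2 relatives did not share the size: the log2 fold change at 24 hpi was 0.21 for rps27.1 and 0.11 for rps27.2.

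Next in p-value at 24 hpi were rps19bp1 and rps2. The row rps19bp1 had 68.2, 67.4 and 76.0 CPM in injured libraries, against 56.0, 51.5 and 59.7 CPM in control libraries (0.34 ± 0.12, edgeR adjusted p = 0.444). The gene rps2, at the channel by which messenger RNA enters the ribosome, had 579, 554 and 666 CPM in injured libraries, against 469, 498 and 471 CPM in control libraries (0.32 ± 0.13, edgeR adjusted p = 0.510). In both, the groups were apart. The lowest values were -0.13 for rpl31, -0.10 for rpl24 and -0.06 for rpl13a.

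**Figure D4:**
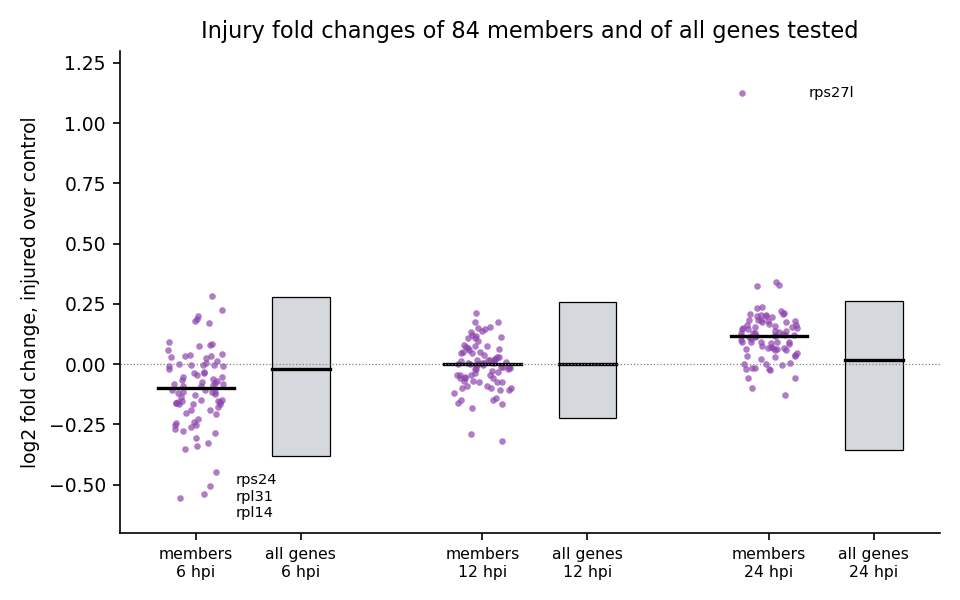
Log2 fold change, injured over control, of each of the 84 members (points, with their median as a line) beside the quartiles (box) and median (line) of all genes tested, at 6, 12 and 24 hpi. Member medians are -0.10, 0.00 and 0.12, all inside the box of all genes; the first turns to 0.03 with a term for the S number run and the last to -0.00 with library totals alone. The gene rps27l stands alone at 1.13.

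By role, no group of members held a called gene, and the directions below depend on the setting. At 6 hpi 35 of 84 members had the other sign with a term for the S number run and 36 with the second run alone, and at 24 hpi 32 had the other sign when scaled by library totals alone and 21 with the second run alone. The stalk, which recruits translation factors to the ribosome, comprises rplp0, rplp1, rplp2 and rplp2l, with log2 fold changes from -0.12 to -0.05 at 6 hpi, -0.16 to 0.02 at 12 hpi and 0.00 to 0.16 at 24 hpi. In the 5S particle, which restrains the p53 inhibitor Mdm2 when ribosome assembly is disturbed, rpl5a, rpl5b and rpl11 ran from -0.23 to -0.09 at 6 hpi and from 0.03 to 0.15 at 24 hpi. With the term for the run the stalk values at 6 hpi were all positive, with a median of 0.10, and the median of the 5S particle was -0.05. At the exit tunnel rim, 8 of 9 members were negative at 6 hpi (median -0.16) and 7 of 9 positive at 24 hpi (median 0.09), but with the second run alone 6 of 9 were positive at 6 hpi and 2 of 9 at 24 hpi. Of 7 members around the decoding site and messenger RNA channel, 5 were negative at 6 hpi (median -0.12) and 6 positive at 24 hpi (median 0.12), and with the second run alone 4 were positive at 6 hpi and 3 at 24 hpi. The gene rps6, whose protein is phosphorylated downstream of mTOR, had log2 fold changes of 0.03, 0.07 and 0.09 at 6, 12 and 24 hpi, and rplp0, another common reference gene, -0.07, 0.02 and 0.11. For rps3 they were 0.01, 0.14 and 0.22, for rps19 -0.08, 0.01 and 0.18, for rps27a, a fusion with ubiquitin, -0.05, -0.10 and 0.09, for rpl10, among the last proteins to join the large subunit, -0.12, -0.04 and 0.20, and for rpl38, which favours translation of some Hox messenger RNAs in mouse, -0.31, -0.18 and -0.02.

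Averaged over the time points, the injury effect again called no member and no other gene with edgeR (0%), while DESeq2 called 226 genes and no member. The median was 0.00 for the members and -0.00 for all genes, and 4 members had an unadjusted p under 0.05 (4.76% of 84, against 12.6% of all genes). They were rps2 at 0.22 ± 0.08, rpl3 at 0.21 ± 0.07 and rpl7a at 0.17 ± 0.08, all higher in injured libraries, and rpl31 at -0.25 ± 0.11 (SE; edgeR adjusted p from 0.253 to 0.393). The test of a difference in injury effect among the 3 times called 0% of genes and no member (13 genes and no member with DESeq2), and no member had an unadjusted p under 0.05, against 5.00% of all genes.

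The collection times were compared next, within each arm. In injured libraries 269 genes (1.53%) were called over time and in control libraries 270 (1.54%), but no member in either. An unadjusted p under 0.05 was reached over time by 15 members in injured libraries (17.9% of 84, against 12.6% of all genes) and by 1, rpl5a, in control libraries (1.19%, against 12.0%). DESeq2 called 3 members over time in injured libraries, rps24, rpl10 and rpl31, with adjusted p of 0.00478, 0.0399 and 0.0499, where it called 4.30% of all genes. That DESeq2 test was fitted on the injured libraries alone, while edgeR used all 18, so the 2 results differ in more than the tool.

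Between injured libraries, 81 of 84 members were higher at 24 than at 6 hpi, with a median log2 fold change of 0.27 beside -0.02 over all genes. None was called by edgeR, against 2.01% of genes. DESeq2 called no member either, where it called 860 genes in all, and its smallest adjusted p for a member was 0.0597. An unadjusted p under 0.05 with higher values at 24 hpi was reached by 26 members (31.0% of 84, against 7.01% of all genes), and 32 had no overlap in that direction (38.1%, against 9.73%). Since the members move together, these are not 26 separate results. Without injured 24 hpi replicate 3 the median was 0.17. With the second run of S numbers alone the median was 0.17 and 2 members had an unadjusted p under 0.05. That replicate is the only injured library of the first run, so both settings compare the same injured libraries. Among injured libraries rod and cone genes held 26.5% to 27.8% of counts at 24 hpi and 17.6% to 26.1% at 6 hpi, and the part of this in the members' values was not tested. In control libraries 69 of 84 members were higher at 24 than at 6 hpi, with a median of 0.05, which was -0.05 without control 24 hpi replicate 2. The test among the 3 times, given above, compares the arms and called no member.

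The gene rpl10 had 193, 223 and 253 CPM in injured libraries at 24 hpi, against 169, 136 and 173 CPM at 6 hpi (0.48 ± 0.17, edgeR adjusted p = 0.182). No value at 6 hpi reached those at 24 hpi. For rpl5b the values were 122, 139 and 156 CPM at 24 hpi, against 112, 96.3 and 96.0 CPM at 6 hpi (0.46 ± 0.15, edgeR adjusted p = 0.155), and the large-subunit gene rpl35a averaged 162 ± 14.6 CPM at 24 hpi and 123 ± 13.9 CPM at 6 hpi. Of the 3 members lower at 24 hpi, rpl37_1 and rpl29 differed by -0.04 and -0.03, and the third was rps8b. The gene rps8b (chromosome 8, 18193116 to 18200003 in GRCz11, minus strand) had 11.9, 8.64 and 10.4 CPM in injured libraries at 24 hpi, against 15.6, 22.2 and 14.3 CPM at 6 hpi, without overlap (-0.75 ± 0.24, edgeR adjusted p = 0.133). In control libraries rps8b had 9.01, 9.07 and 13.0 CPM at 24 hpi, against 16.5, 17.0 and 12.3 CPM at 6 hpi (-0.56 ± 0.24, edgeR adjusted p = 0.327), with overlap. Both arms thus gave a lower mean for rps8b at 24 hpi, while its partner rps8a had 235, 247 and 309 CPM at 24 hpi, against 241, 189 and 199 CPM at 6 hpi, in injured libraries.

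Between 24 and 12 hpi, 83 of 84 members were higher at 24 hpi in injured libraries, with a median of 0.24. No member was called, where edgeR called 210 genes and DESeq2 664 of all genes tested. The smallest DESeq2 adjusted p for a member was 0.0578. An unadjusted p under 0.05 was reached by 13, all higher (15.5% of 84, against 5.91% of all genes), with the smallest for rpl10 (0.55 ± 0.17, edgeR adjusted p = 0.147). With the second run of S numbers alone the median was 0.13 and 1 member had an unadjusted p under 0.05; with a term for the run 2 did, and scaled by library totals alone the median was 0.07. In control libraries 73 of 84 members were higher at 24 than at 12 hpi, with a median of 0.12. An unadjusted p under 0.05 was reached there by 6 members (7.14% of 84, against 12.0% of all genes), 4 of them higher. This control median was 0.07 with a term for the run and 0.11 with the second run alone. Between 12 and 6 hpi the median was 0.04 in injured and -0.05 in control libraries. That control value turned to 0.06 with a term for the run and 0.08 with the second run alone. In control libraries rpl5a was lowest at 12 hpi, at 67.5 ± 2.57 CPM, with 87.9 ± 8.26 CPM at 6 hpi and 90.4 ± 20.1 CPM at 24 hpi (SD, n = 3 each).

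**Figure D5:**
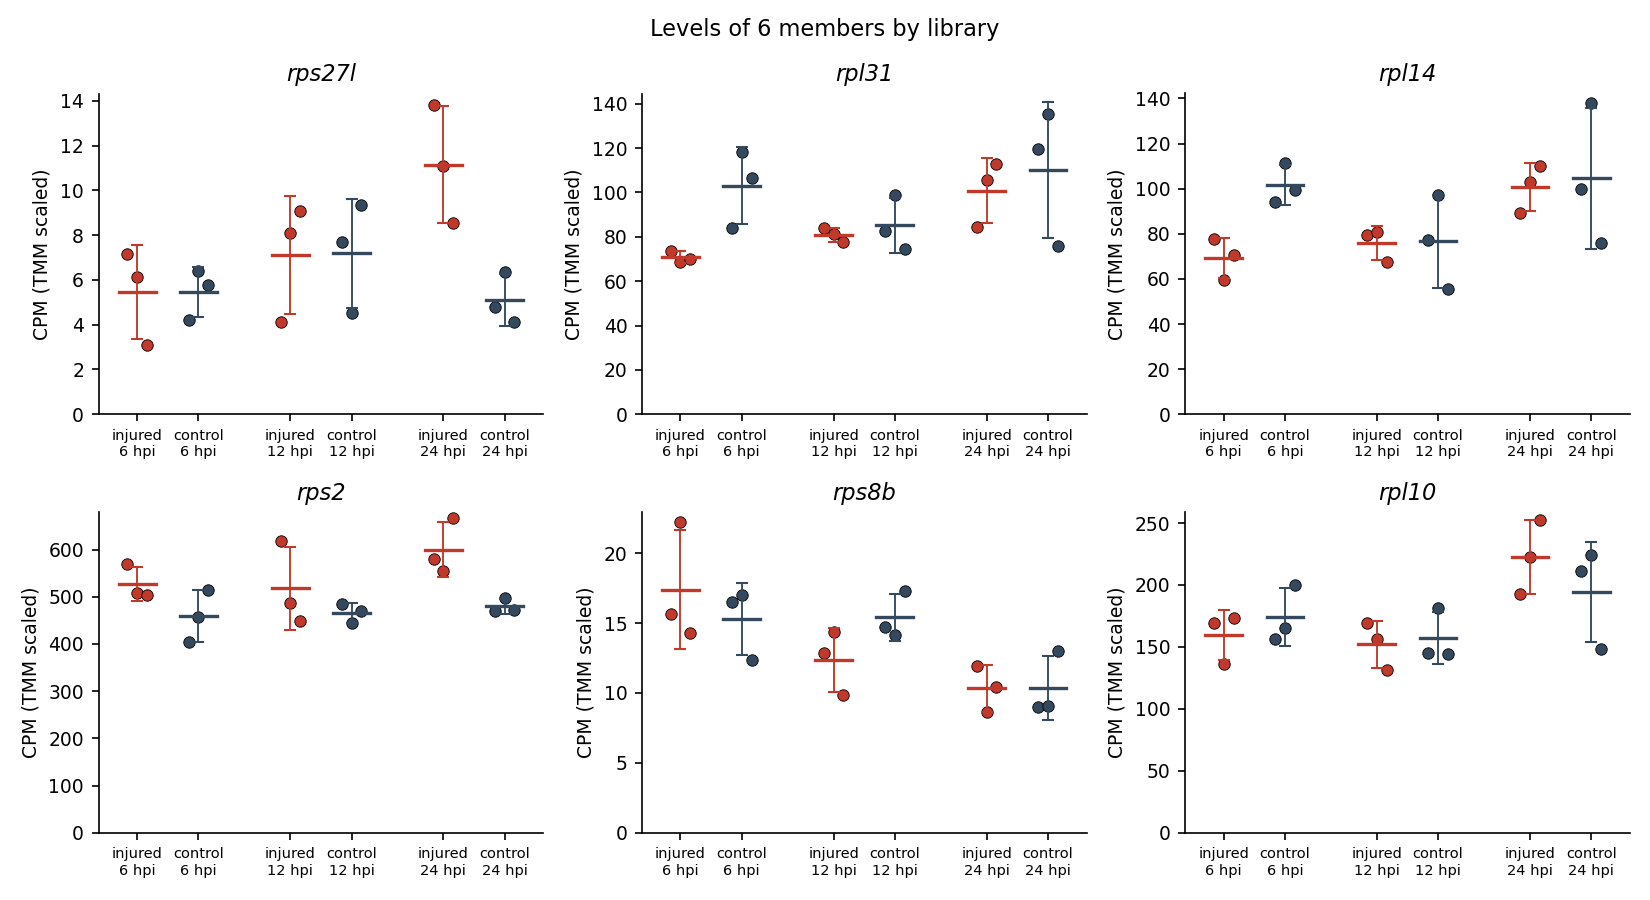
CPM of 6 members in each library, with group means (bars) and SD (whiskers, n = 3), injured left of control at each time. The gene rps27l is apart only at 24 hpi, rpl31 and rpl14 only at 6 hpi, rps2 is apart at 24 hpi, rps8b is lowest at 24 hpi in both arms, and rpl10 is highest in injured libraries at 24 hpi.

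Other genes of the translation apparatus were counted from lists chosen by function. For injury edgeR called no gene of these lists at any time, where it called 0% of all 17527 genes tested. DESeq2 calls for these lists are not given here. At 24 hpi the median log2 fold change was 0.28 over 53 ribosome biogenesis genes, 0.18 over 39 initiation factors, 0.23 over 12 other messenger RNAs of the pyrimidine-tract class, 0.14 over 14 elongation factors, 0.08 over 74 mitochondrial ribosomal proteins and 0.07 over 26 genes of mTOR and translation control. In biogenesis 14 of 53 had an unadjusted p under 0.05 at 24 hpi, all higher in injured libraries, against 3.39% of all genes in that direction. Of the 53, 48 were positive at 24 hpi, where 51.4% of all genes were, and 35 at 6 hpi, where the median was 0.09. Scaled by library totals alone, the median of all genes at 24 hpi was -0.10. The mitochondrial ribosomal proteins had a median of 0.06 at 6 hpi.

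Over time in injured libraries, where edgeR called no cytosolic member, 6 of the 53 biogenesis genes rose at 24 against 6 hpi and none fell. Of all genes, 2.01% were called there, counting both directions. Among the 6, ubtf, which opens ribosomal DNA for transcription, averaged 129 ± 2.34 CPM at 24 hpi and 87.0 ± 7.66 CPM at 6 hpi (0.57 ± 0.11, edgeR adjusted p = 0.00853), and nop10, a part of the particles that modify ribosomal RNA, 66.1 ± 3.83 CPM at 24 hpi and 36.6 ± 6.23 CPM at 6 hpi (0.85 ± 0.17, edgeR adjusted p = 0.0104). The other 4 were nop58, dkc1, utp3 and gnl3. Of 39 initiation factors, 3 rose, with eif4a1a, the RNA helicase that unwinds messenger leaders, at 179 ± 24.6 CPM at 24 hpi and 103 ± 16.9 CPM at 6 hpi (0.80 ± 0.15, edgeR adjusted p = 0.00771). In control libraries eif4a1a also rose, to 134 ± 12.0 CPM at 24 hpi, against 78.5 ± 7.32 CPM at 6 hpi (0.77 ± 0.15, edgeR adjusted p = 0.00935). The other of 2 initiation factors called there was eif3c, higher by 0.58 ± 0.13 (edgeR adjusted p = 0.0274). In control libraries ubtf rose as well, by 0.44 ± 0.11 (edgeR adjusted p = 0.0449). It was the only 1 of the 53 biogenesis genes called there, against 1.84% of all genes. At 24 against 6 hpi the median over these 53 genes was 0.33 in injured and 0.21 in control libraries. Over all genes it was -0.02 in each arm. Of the 53, 51 were positive in injured and 41 in control libraries. Whether the arms differed in the rise of this list was not tested. Of 14 elongation factors, eef1a1b fell by 0.76 ± 0.19 in injured libraries (edgeR adjusted p = 0.0495). Of 26 genes of mTOR and translation control, akt1s1, an inhibitor within the mTOR complex, fell by 0.97 ± 0.15 in injured libraries (edgeR adjusted p = 0.00166). The same gene was called over the 3 times in control libraries too (edgeR adjusted p = 0.0488). At 24 against 6 hpi in control libraries, 1 gene of that list was called, eif4ebp3l (-1.62 ± 0.40, edgeR adjusted p = 0.0499). The part of the S number run, of single libraries and of rod and cone RNA in the values of these lists was not tested.

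In the authors' deposited table of injured against control, no member had an adjusted p under 0.05 at any time, where 128, 23 and 506 genes did at 6, 12 and 24 hpi. The smallest member value in the authors' deposited table was 0.164, for rps27l at 24 hpi, with a log2 fold change of 1.11 there.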

How the data were processed

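RNA of 18 libraries of sorted cells was measured by polyA RNA-seq of amplified, unstranded full-length cDNA (SMART-Seq HT and Nextera XT kits, per the labels' protocols). The authors deposited, per time point, total counts per gene, RPKM and TPM values (scaled by exon length and library total), and log2 fold changes with adjusted p-values of their own test, per the file headers. The submitters' processing notes name GRCz11; aligner and annotation release are not given in the sources used here. Each time point is a separate table, and RPKM carries that table's scaling. The members and lists were chosen with earlier results of these data known. The headers mark injured 6 hpi replicate 1 alone as trimmed. No per-sample count column was left unmapped (0).

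Counts were tested with edgeR 4.0.16 in R 4.3.3: TMM factors, filterByExpr with a minimum count of 10, one mean per group over all 18 libraries, quasi-likelihood F tests and Benjamini-Hochberg adjustment over 17527 genes, with calls at an adjusted p under 0.05. Standard errors are the log2 fold change over the square root of F. Log2 CPM used a prior count of 2. The test was also run on simulated data, with planted changes larger than the injury fold change of any member but rps27l. That run therefore does not show whether changes as small as those of the members would be called. DESeq2 1.42.0 and other settings were alternatives. Named members were those with the 3 smallest p-values in each direction per contrast, the 5 highest and lowest by control RPKM, a set fixed by function, paralog pairs and the 3 most and least tied to the family; rps9, rps29 and the axis were chosen after their values were seen. Between any pair of same-group libraries the chi-square of counts, divided by the number of genes, was 26.3 to 116, so none was taken as a repeat. Start-site and protein sequences were not used here, and some genes, 1 member among them, are not reported singly. A share of counts is the members' counts over all gene counts, and intervals cover counting error only, since reads carry no molecular identifiers.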

Additional observations from a re-analysis of the deposited data

How the results depend on the processing

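Every count of called members was 0 under all settings tried, except that DESeq2 called 3 of 84 over time in injured libraries, where it called 4.30% of all genes. That test was fitted on the injured libraries alone. The members' median log2 fold change at 6 hpi was -0.30 when scaled by library totals alone, where all genes had a median of -0.22, and 0.0748 with only the second run of S numbers, an alternative chosen after seeing the data; between control 24 and 6 hpi it was -0.12 and 0.22 under the same settings, and the share difference at 6 hpi was -0.104 points with the second run. Leaving out each library in turn gave 0 called members in every comparison and medians of -0.19 to -0.03 at 6 hpi, -0.09 to 0.05 at 12 hpi, 0.02 to 0.21 at 24 hpi, -0.03 to 0.03 averaged, 0.17 to 0.36 for injured 24 against 6 hpi and -0.05 to 0.16 for control 24 against 6 hpi. Share differences ranged from -0.355 to -0.175, -0.058 to 0.047 and -0.101 to 0.10 points at 6, 12 and 24 hpi. The cause of these shifts was not tested. The replicate block left every count at 0 and the medians at -0.10, -0.00 and 0.12; replicate numbers share no stated origin, 2 of 9 same-numbered pairs had a correlation of deviations over 0.1 (-0.07 to 0.13), and 4 of 9 injured libraries correlated best with their own number. At 6, 12 and 24 hpi 55, 17 and 36 of the 84 members changed sign under library totals, the run term or the second run alone. At 12 hpi all 17 changed with library totals and 0 with either run setting. No 12 hpi library is of the first run, so the run settings do not test that time. The adjusted p of rps27l at 24 hpi ran from 0.205 to 0.768. Ratios of the highest to the lowest control level over the 84 rows were 265 in RPKM and 266 in TPM and in counts per length with TMM factors. Those lengths were taken from the RPKM values, so the likeness does not test the length scaling. Over the 81 genes the ratio was 127 in RPKM. The lowest count of any member in a library was 73, for rps27l.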
